A study of Homo sapiens with 6 samples.

Results

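The 36 genes described here belong to the unfolded protein response and the integrated stress response. They were taken by name from a gene-level RNA-seq count table of 26364 genes and read in all 6 libraries. They comprise 13 endoplasmic reticulum (ER) chaperones and folding factors, 7 genes of ER-associated degradation, 3 genes of the sensing arm (ERN1, ATF6 and XBP1), and ATF4 with 12 genes it is known to drive. All libraries came from Ishikawa cells, an established line of endometrioid adenocarcinoma that responds to estrogen, and the series asked how loss of ETV4, an ETS-family transcription factor, affected gene expression. The 3 lines were the parental line and the ETV4 knockout lines clone 1 and clone 2. Every line was moved to hormone-depleted medium before treatment and gave 1 library after 0.1% DMSO, the vehicle, and 1 after 10 nM 17β-estradiol (E2). Each knockout line is a single clone, the parental line has 1 library per treatment, and how ETV4 was disrupted is not given in the sources used here. The labels are at odds on the duration of treatment, with 8 h in the protocol and 1 h in the sample characteristics.

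The unfolded protein response is set off when client proteins outrun the folding capacity of the ER. ERN1 (IRE1α) splices XBP1 mRNA and ATF6 is cleaved to a transcription factor, and both raise the transcription of ER chaperones and degradation genes. The kinase PERK acts on translation instead, and with the sensors of amino acid shortage, heme loss and viral RNA it phosphorylates eIF2α, which favours translation of ATF4 and so the transcription of amino acid synthesis and stress genes, the integrated stress response. Splicing of XBP1, cleavage of ATF6 and translation of ATF4 are not read by gene-level counts. In the endometrium the glandular epithelium is secretory and so relies on ER folding.

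The control sequences named for each arm were looked for in the promoters. Of the 36 genes, 34 had an entry in a RefSeq promoter table (build GRCh38.p14, 250 bases before to 50 after the start site), and DERL1 and DERL3 had none. For each gene only its first listed promoter was read, so any other start site was not searched. Shares of the table count every entry, so the 2 are not counted alike. The ER stress element, through which ATF6 acts together with NF-Y, was searched on both strands as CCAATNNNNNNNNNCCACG. In this form it stood in 5 of 13 chaperone promoters and in XBP1, against 27 of 35116 promoters in the table (0.0769%). It stood in 0 of 5 degradation promoters and in 0 of 13 promoters of the ATF4 group. Only this spacing was searched, so a promoter without a match may hold another form of the element. The CEBP-ATF response element bound by ATF4, searched as TGATGNAA, stood in 3 of 13 promoters of the ATF4 group and in HERPUD1, against 3.62% of the table. The UPR element core TGACGTG was found in HYOU1 alone, against 1.97% of the table. No matches overlapped in these promoters. A match describes the letters and is not evidence of binding. The sites are printed because each arm is known to act through elements of this form, and whether these copies are used was not tested. They are given with 10 flanking bases in lower case and the element in capitals, 5′ to 3′ along the strand on which the element reads as given above. They lie at chr9:125241381-125241419 (minus strand) for HSPA5, chr12:103930206-103930244 (plus) and chr12:103930311-103930349 (minus) for HSP90B1, chr19:12938374-12938412 (minus) for CALR, chr5:179698768-179698806 (plus) for CANX, chr22:49918544-49918582 (minus) for CRELD2 and chr22:28800593-28800631 (minus) for XBP1. The shorter elements lie at chr16:56931956-56931983 (minus) for HERPUD1, chr1:212565206-212565233 (plus) for ATF3, chr15:40953252-40953279 (minus) for CHAC1 and chr7:97872459-97872486 (minus) for ASNS.
HSPA5: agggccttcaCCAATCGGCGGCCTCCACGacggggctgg
HSP90B1 1: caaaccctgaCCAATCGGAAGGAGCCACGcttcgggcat
HSP90B1 2: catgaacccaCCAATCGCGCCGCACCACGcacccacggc
CALR: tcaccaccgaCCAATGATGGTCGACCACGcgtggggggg
CANX: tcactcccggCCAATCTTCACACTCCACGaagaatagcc
CRELD2: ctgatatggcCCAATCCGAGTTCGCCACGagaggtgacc
XBP1: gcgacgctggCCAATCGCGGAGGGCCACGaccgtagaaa
HERPUD1: gggcacgggcTGATGCAAcccgccgcgt
ATF3: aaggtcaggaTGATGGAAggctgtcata
CHAC1: ctggcaggagTGATGCAAcggcagggga
ASNS: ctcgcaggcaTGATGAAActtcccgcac

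Libraries held 28037392 to 36829479 counts, and 15611 genes passed the filter on low counts, all 36 stress genes among them. Their counts ran from 55 (DERL3, parental DMSO) to 72671 (CALR, clone 1 DMSO), with DERL3, ERN1 and ATF3 the least counted. ETV4 mRNA was lower in the clones by a fitted log2 difference of -3.04 (SE 0.21, adjusted p = 0.00868, edgeR's quasi-likelihood test). Epithelial markers (5 of 5) and uterine lineage markers (4 of 4) had at least 10 counts in every library, as had 2 of 7 stromal, 0 of 3 leukocyte and 1 of 3 endothelial markers. Summed CPM over each list was 46.8 to 86.1 for the stromal markers, 0.134 to 0.307 for the leukocyte markers and 1.61 to 3.96 for the endothelial markers. COL1A1 (44.8 to 75.2 CPM) made up most of the stromal sum, and VWF (1.61 to 3.96 CPM) nearly all of the endothelial one. Of these lists, PDGFRB, LUM, DCN, CD3E, PECAM1 and CDH5 had 3 or fewer counts in every library. Among the other stromal markers, COL3A1 ranged from 1.34 to 9.73 CPM, COL1A2 from 0.0837 to 0.721 CPM and PDGFRA from 0.102 to 0.538 CPM. The leukocyte markers PTPRC and LYZ reached 0.171 and 0.206 CPM. Across genes, the log2 difference between E2 and DMSO correlated with transcript GC content in the parental line (Spearman 0.335), less so in clone 1 (0.132) and not in clone 2 (-0.0104), a description over 15095 genes of the same libraries.

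None of the 36 genes passed an adjusted p of 0.05 in any of the 5 comparisons of the unblocked quasi-likelihood fits. Of all genes tested, 1.13% passed for E2 against DMSO over the 3 lines, 0.327% for knockout against parental, 0.329% for E2 in the clones alone, 0% for the difference in the E2 effect between clones and parental, and 0.871% for clone 2 against clone 1. At an unadjusted p under 0.05 the stress genes numbered 3, 3, 1, 0 and 7 in the same order, and the shares of all genes were 20.4%, 11.4%, 8.7%, 7.62% and 12.1%. DESeq2 called 1, 0, 1, 0 and 0 of the 36, against 7.14%, 2.95%, 2.08%, 0.167% and 2.36% of all genes. Limma-voom called 0 in each, against 1.11%, 0.365%, 0.255%, 0% and 0.858% of all genes. Levels varied little, in that the highest library was at least 2-fold above the lowest for 5 of 36 genes (ERN1, ATF4, ATF3, DDIT4 and ASNS), against 37.6% of all genes tested and 25.2% of those with a mean of at least 2 CPM (counts scaled to library size with TMM factors). None of the 20 chaperone and degradation genes reached 2-fold. The comparisons share libraries and are not independent of each other, and in RNA from whole cultures fewer cells expressing a gene and less RNA per cell cannot be told apart.

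**Figure D1:**
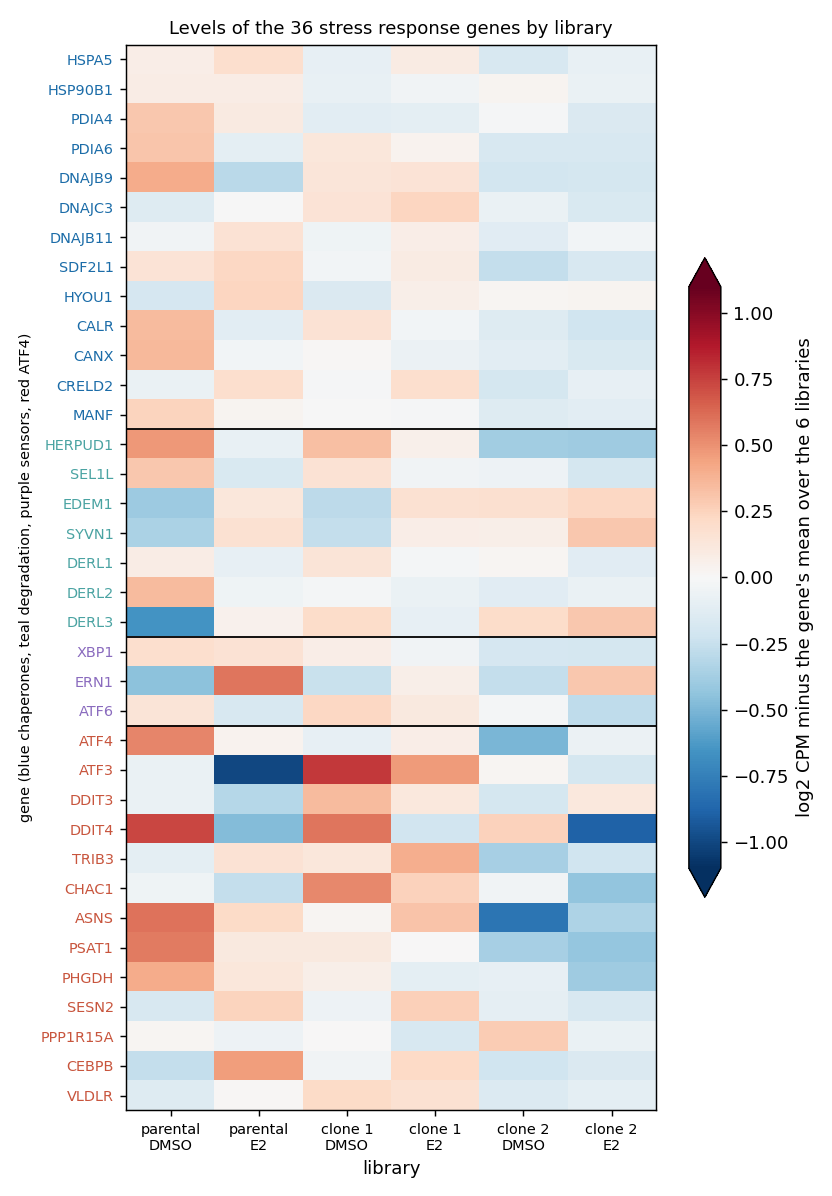
Colour gives log2 CPM minus the gene's mean over the 6 libraries (columns), for the 36 stress response genes (rows, grouped by role). The strongest colours lie among the ATF4-driven genes, with DDIT4 at 170.1 CPM in clone 2 after E2 and 527 CPM in the parental line after DMSO.

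No ER chaperone reached a 2-fold range across lines and treatments. In the parental line, E2 levels went down to 61.5% of DMSO (DNAJB9) and up to 134% (HYOU1). In the fit over the 3 lines 0 of 13 passed. Log2 differences between E2 and DMSO ran from -0.25 to 0.22, with a median of -0.019, beside -0.017 over all genes. After the GC and length correction the median was 0.091, with 8 of 13 above 0. HSPA5 (BiP), the main Hsp70 chaperone of the ER lumen and the usual readout of the response, measured 826 and 889 CPM (parental), 738 and 835 CPM (clone 1) and 694 and 740.4 CPM (clone 2) (DMSO first and E2 second, here and below). Each E2 library was slightly above its own DMSO library, but the 3 E2 and 3 DMSO libraries overlapped, and the log2 difference was 0.13 (SE 0.13, adjusted p = 0.579). HYOU1 (GRP170), the nucleotide exchange factor of BiP, measured 309 and 414 CPM (parental), 316 and 369 CPM (clone 1) and 357 and 359 CPM (clone 2). All 3 E2 libraries lay above all 3 DMSO libraries, although clone 2 barely differed by treatment, and the log2 difference was 0.22 (SE 0.14, adjusted p = 0.388). CRELD2, an ER-resident disulfide isomerase-like protein, measured 70.1 and 83.8 CPM (parental), 73.2 and 83.7 CPM (clone 1) and 64.7 and 69.5 CPM (clone 2), with E2 above DMSO in 3 of 3 lines and overlapping groups. DNAJB11 and SDF2L1, partners of BiP, also had E2 above DMSO in each line, with CPM from 177 to 215 and 16.5 to 23.2.

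The lectin chaperones and PDIA6 were lower after E2 in the parental library pair. CALR (calreticulin), which holds glycoproteins during folding, measured 2320.4 and 1679 CPM (parental), 2028 and 1776 CPM (clone 1) and 1643 and 1565 CPM (clone 2). CANX (calnexin), its membrane-bound counterpart, measured 1889 and 1442 CPM (parental), 1485 and 1409 CPM (clone 1) and 1358 and 1312 CPM (clone 2). For both, the parental DMSO library was the highest of the 6, and the clones differed far less by treatment, so that the fitted log2 differences of -0.25 (SE 0.16, adjusted p = 0.398) and -0.17 (SE 0.14, adjusted p = 0.497) did not pass. PDIA6, a disulfide isomerase, measured 427 and 321 CPM (parental), 376 and 355 CPM (clone 1) and 306 and 305 CPM (clone 2), again with the parental DMSO library on top. DNAJC3 (P58IPK), a BiP cochaperone, measured 127 and 139.8 CPM (parental), 156 and 165 CPM (clone 1) and 134 and 125 CPM (clone 2), with no common direction over the lines. HSP90B1 (GRP94), MANF and PDIA4 ranged over 1128 to 1267, 91.9 to 120.3 and 353 to 485 CPM. HSP90B1 was the steadiest of the 36, with its highest library 1.12 times its lowest. The 5 chaperones with an ER stress element in their promoter did not share a direction, with fitted log2 differences of 0.13 for HSPA5, -0.019 for HSP90B1, -0.25 for CALR, -0.17 for CANX and 0.19 for CRELD2.

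Genes of ER-associated degradation split into a pair higher and several lower after E2, none past the threshold. SYVN1 (HRD1), the ubiquitin ligase of the retrotranslocation complex, measured 44.9 and 64.1 CPM (parental), 47.4 and 60.0 CPM (clone 1) and 59.6 and 70.1 CPM (clone 2). The E2 libraries lay above all DMSO libraries, and the log2 difference was 0.36 (SE 0.14, adjusted p = 0.224). After the GC and length correction no degradation gene lay above 0.26 over the 3 lines. EDEM1, a lectin that hands misfolded glycoproteins to degradation, measured 18.9 and 27.1 CPM (parental), 20.4 and 27.9 CPM (clone 1) and 28.1 and 29.1 CPM (clone 2), with the DMSO libraries of the parental line and clone 1 well below the other 4. Its log2 difference of 0.33 (SE 0.16) had an adjusted p of 0.294, and of 0.0498 without clone 2, where 21.6% of all genes passed. HERPUD1, a membrane scaffold of the ligase complex, measured 120.4 and 81.7 CPM (parental), 109 and 90.0 CPM (clone 1) and 66.5 and 66.1 CPM (clone 2). Clone 2 was low in both treatments, and E2 was below DMSO in the parental line and clone 1 (log2 over the 3 lines -0.30, SE 0.22, adjusted p = 0.46). SEL1L, the adaptor of HRD1, measured 271 and 197 CPM (parental), 247 and 215 CPM (clone 1) and 213 and 193 CPM (clone 2), lower after E2 in 3 of 3 lines. Among the derlins, thought to form the channel, DERL1 lay at 85.2 to 102 CPM with every E2 library below every DMSO library, a pattern held by 10.7% of all genes. DERL2 measured 88.9 and 67.6 CPM (parental), 68.8 and 66.3 CPM (clone 1) and 64.2 and 66.3 CPM (clone 2), and stood out in parental DMSO alone. DERL3 had only 55 to 120 counts, or 1.85 and 3.02 CPM (parental), 3.35 and 2.74 CPM (clone 1) and 3.35 and 3.59 CPM (clone 2).

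In the sensing arm ERN1 stood apart from ATF6 and XBP1. ERN1, the kinase and endoribonuclease that splices XBP1, measured 3.73 and 7.70 CPM (parental), 4.30 and 5.35 CPM (clone 1) and 4.27 and 6.29 CPM (clone 2), from 111 to 288 counts. All E2 libraries were above all DMSO libraries, a pattern shared by 4 of 36 stress genes (DNAJB11, HYOU1, SYVN1 and ERN1) and 13.5% of all genes. As a share of its own DMSO library, the E2 level was 206% for parental cells, 124% for clone 1 and 147% for clone 2. The log2 difference of 0.64 (SE 0.21) had an adjusted p of 0.183. Without clone 2 the adjusted p was 0.0441, in a fit where 21.6% of all genes passed. ATF6, the membrane-bound sensor cleaved in the Golgi, measured 92.3 and 73.8 CPM (parental), 97.7 and 90.0 CPM (clone 1) and 82.6 and 69.0 CPM (clone 2), with E2 below DMSO in every line (log2 -0.23, SE 0.15, adjusted p = 0.394). XBP1, the substrate of ERN1, measured 205 and 201 CPM (parental), 189.9 and 175 CPM (clone 1) and 158 and 157 CPM (clone 2) and hardly differed by treatment (log2 -0.055, SE 0.13, adjusted p = 0.821). After correction for GC content and length the log2 difference was 0.46 for ERN1, -0.31 for ATF6 and 0.14 for XBP1, whose sign turned. Of these 3 genes 0 passed with that correction.

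DDIT4 was lower after E2 in all 3 lines, and was the stress gene called for E2 by DESeq2 and by the blocked fit. DDIT4 (REDD1), a stress-induced inhibitor of mTORC1 that is also known to respond to hypoxia and glucocorticoids, measured 527 and 227 CPM (parental), 475 and 274 CPM (clone 1) and 376 and 170.1 CPM (clone 2). Every E2 library lay below every DMSO library, a pattern shared by DERL1, DDIT4 and PPP1R15A of the 36 and by 10.7% of all genes. A difference of at least 2-fold between a line's E2 and DMSO libraries was seen for DDIT4 and ERN1 in parental cells (2 of 36, against 16.4% of all genes), for 0 of 36 in clone 1 (6.04%) and for DDIT4 in clone 2 (1 of 36, against 6.51%). Parental cells kept 43.1% of their DMSO level after E2, clone 1 57.7% and clone 2 45.2%. Without a block the log2 difference of -1.03 (SE 0.21) missed the threshold (adjusted p = 0.0907). With the line as a block, which pairs the libraries of each line, the log2 difference of DDIT4 was -1.05 (SE 0.14, adjusted p = 0.0255, edgeR), with 2.46% of all genes called (10.5% with the GC and length correction added, DDIT4 again called at 0.00832), and DESeq2 gave -1.03 (adjusted p = 0.000172). It was also called without clone 1 (adjusted p = 0.0214) and without clone 2 (adjusted p = 0.0001), when 4.83% and 21.6% of all genes passed. In the clones alone the log2 difference was -0.95 (SE 0.26, adjusted p = 0.369) unblocked and -0.98 (adjusted p = 1.53e-08) with the block, where 15% of all genes were called. That blocked fit has 1 residual degree of freedom per gene. Without the E2 library of clone 1 the unblocked fit also called DDIT4 (adjusted p = 0.0176), with 2.3% of all genes. The E2 effect on DDIT4 did not differ detectably between clones and parental (interaction log2 0.27, SE 0.45, adjusted p = 0.858).

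The rest of the ATF4 group lay closer to 0. Over the 3 lines its median log2 difference was -0.069, with 7 of 13 genes below 0, beside 51.8% of all genes. ATF3, a stress-induced bZIP factor, measured 5.65 and 2.97 CPM (parental), 10.2 and 8.23 CPM (clone 1) and 6.01 and 5.19 CPM (clone 2), lower after E2 in every line and on 111 to 364 counts (log2 -0.48, SE 0.30, adjusted p = 0.384). CHAC1, which degrades glutathione, measured 23.6 and 20.3 CPM (parental), 35.1 and 29.0 CPM (clone 1) and 23.8 and 18.0 CPM (clone 2), also lower after E2 in 3 of 3 lines. CEBPB, a bZIP partner of ATF4, measured 35.5 and 58.5 CPM (parental), 41.4 and 49.6 CPM (clone 1) and 36.6 and 38.0 CPM (clone 2). The parental E2 library was the highest (log2 0.35, SE 0.17, adjusted p = 0.291). The transcript GC content of CEBPB was above that of 97.5% of tested genes. After the GC and length correction no gene of the ATF4 group lay above 0.29 over the 3 lines. Without clone 2 the adjusted p of CEBPB was 0.0403, in a fit where 21.6% of all genes passed. PSAT1 and PHGDH, enzymes of serine synthesis, had E2 below DMSO in each line, with CPM from 289.6 to 577 and 223 to 387. PPP1R15A (GADD34), which restores translation by dephosphorylating eIF2α, ranged from 24.2 to 33.3 CPM and was lower after E2 in 3 of 3 lines. TRIB3, a pseudokinase, was higher after E2 in 3 of 3 lines (23.5 to 40.0 CPM). DDIT3 (CHOP), the pro-apoptotic factor downstream of PERK, SESN2, a leucine sensor upstream of mTORC1, and VLDLR, a lipoprotein receptor, ranged over 9.33 to 14.7, 23.9 to 32.5 and 11.2 to 14.4 CPM without a common direction. Of all 36 genes, 14 had E2 below DMSO in each line and 10 had E2 above, against 25.2% and 27.8% of all genes.

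**Figure D2:**
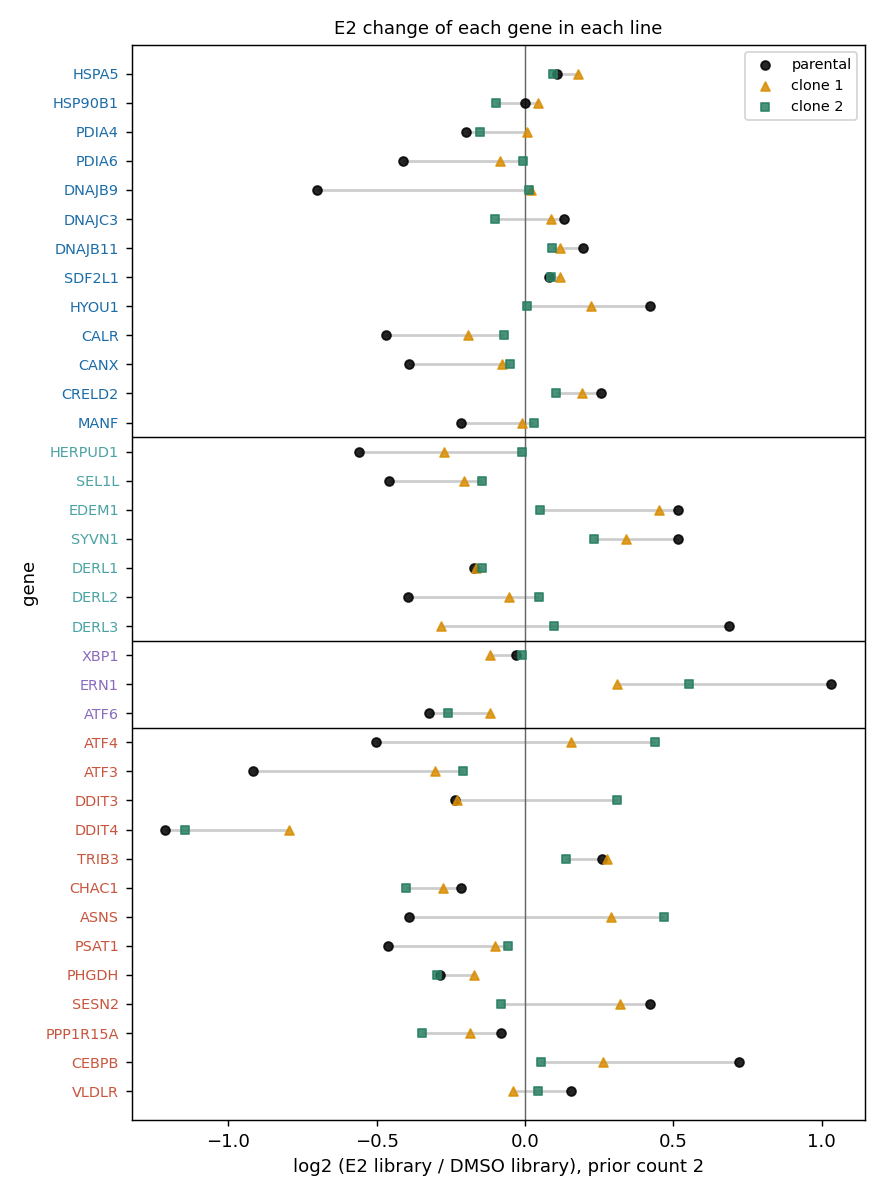
Each point is the log2 ratio of the E2 to the DMSO library of 1 line (prior count 2), with a grey bar spanning the 3 lines. DDIT4 lies at -1.21, -0.79 and -1.14 in the parental line, clone 1 and clone 2, while most chaperones stay near 0.

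Another 3 genes had E2 below DMSO in the parental line and above it in both clones: ATF4, ASNS and DNAJB9. This pattern was held by 6.51% of all genes, and the reverse one by 0 of 36 stress genes and 6.57% of all. ATF4, the transcription factor of the arm, measured 825 and 583 CPM (parental), 534 and 595 CPM (clone 1) and 400.3 and 543 CPM (clone 2). Among the DMSO libraries the parental one was far above the clones, and among the E2 libraries the 3 lines lay close together. ASNS (asparagine synthetase), a classical ATF4 target, measured 304 and 232 CPM (parental), 204 and 249 CPM (clone 1) and 115 and 159 CPM (clone 2), with clone 2 lowest in both treatments. DNAJB9 (ERdj4), a BiP cochaperone that restrains ERN1, measured 37.3 and 23.0 CPM (parental), 31.0 and 31.4 CPM (clone 1) and 24.5 and 24.7 CPM (clone 2), and only the parental line differed by treatment.

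The interaction term, the E2 effect in the clones minus that in the parental line, called 0 of 36 genes without a block (edgeR; 0 at an unadjusted p under 0.05; 0 by DESeq2 and by limma-voom). The log2 interaction was 0.78 for ATF4 (SE 0.33, adjusted p = 0.617), 0.75 for ASNS (SE 0.57, adjusted p = 0.683) and 0.72 for DNAJB9 (SE 0.34, adjusted p = 0.617). With the line as a block it called exactly these 3, at 0.80 (adjusted p = 0.0226), 0.77 (adjusted p = 0.0219) and 0.72 (adjusted p = 0.0126), against 15.8% of all genes. The blocked fit rests on 1 residual degree of freedom per gene and on the single parental pair. With the GC and length correction in the same blocked fit, ATF4 (adjusted p = 0.0131) and ASNS (adjusted p = 0.0477) were called and DNAJB9 was not (adjusted p = 0.17), with 7.82% of all genes called. The same correction in the blocked fit of the clones alone called 5 stress genes for E2, against 20.5% of all genes: DDIT4, ASNS (log2 0.43, adjusted p = 0.00163), ATF4 (log2 0.33, adjusted p = 0.0192), SYVN1 (log2 0.26, adjusted p = 0.0388) and CHAC1 (log2 -0.34, adjusted p = 0.0137).

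**Figure D3:**
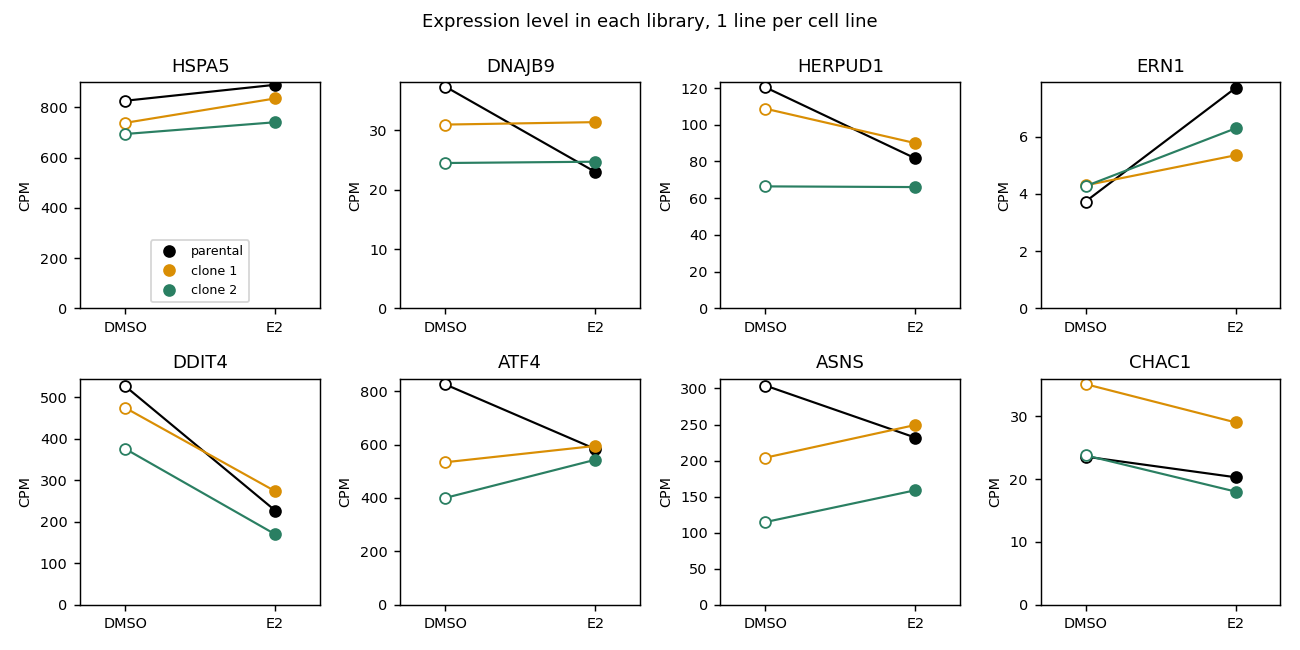
CPM in the DMSO (open) and E2 (filled) library of each line, 1 library per point, for 8 of the genes. DDIT4 slopes down in every line, and ATF4 and ASNS slope down in the parental line and up in both clones.

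Between knockout and parental lines, chaperones were mostly a little lower in the clones, and none passed. Of the 13 chaperones 12 had a negative log2 difference (median -0.14, beside 0.013 over all genes, of which 48.3% were negative), from -0.30 to 0.12. Outside the 36, other ER folding, translocation and degradation genes had 32 of 41 negative and a median of -0.14 in the same fit. Taken by treatment, these 41 genes had medians of -0.15 (clone 1) and -0.33 (clone 2) against parental in DMSO. In E2 their medians were 0.047 (clone 1, with 26 of 41 positive) and -0.080 (clone 2). The chaperone medians were -0.18 and -0.31 in DMSO and -0.045 and -0.16 in E2, clone 1 first. Kinases, proteases and initiation factors upstream of both arms had 12 of 17 negative and a median of -0.094. After the GC and length correction 11 of the 13 chaperones were negative and their median was -0.066. Over the 12 settings run, the median of the 20 chaperone and degradation genes lay between -0.24 and -0.033. PDIA4, a disulfide isomerase, measured 485 and 422 CPM (parental), 365 and 367 CPM (clone 1) and 391 and 353 CPM (clone 2), with both parental libraries above all 4 clone libraries (log2 -0.30, SE 0.13, adjusted p = 0.447). SDF2L1 measured 22.0 and 23.2 CPM (parental), 19.4 and 21.1 CPM (clone 1) and 16.5 and 17.5 CPM (clone 2), with the same order. In all, 7 of 36 genes had every clone library below both parental libraries (HSP90B1, PDIA4, SDF2L1, MANF, XBP1, PSAT1 and PHGDH), against 7.82% of all genes, and 0 had every clone library above, against 8.53%. Compared within a treatment, 19 of 36 genes were lower in both clones after DMSO (39.2% of all genes) and 16 of 36 after E2 (32.2%). In both treatments this held for 11 genes (16% of all genes), 7 of them chaperones, and the reverse held for EDEM1 and ATF3 (18.1% of all genes). PHGDH, the entry enzyme of serine synthesis, had -0.39 (SE 0.14, adjusted p = 0.379) and PSAT1, the next enzyme, -0.50 (SE 0.20, adjusted p = 0.427). PSAT1 measured 577 and 419 CPM (parental), 418 and 389 CPM (clone 1) and 302 and 289.6 CPM (clone 2). In the ATF4 group ATF3 had the largest difference, at 0.83 (SE 0.33, adjusted p = 0.414). Taken singly, clone 2 minus parental was 0.089 in DMSO and 0.80 in E2. Without clone 1 the log2 difference of ATF3 was 0.43 (adjusted p = 0.643), and without the parental E2 library 0.52 (adjusted p = 0.508). Without clone 2 it was 1.15 (adjusted p = 0.000124), with 6.41% of all genes called. Genotype cannot be told apart from line here, since the parental line is 1 line, and the random-effect block for line also called 0 of 36 (0.295% of all genes).

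Between the 2 knockout clones most stress genes were lower in clone 2, and none passed. Clone 2 was below clone 1 in both treatments for 26 of 36 genes, against 35.1% of all genes, and above it for 3 (EDEM1, SYVN1 and PPP1R15A), against 35.7%. Outside the 36, clone 2 was also below for 29 of 41 other ER genes and above for 4. The same counts were 35 of 43 and 4 for other ATF4 targets. The ATF4 group had 11 of 13 genes below in both treatments and a median log2 difference of -0.31, beside 0.0037 over all genes. CHAC1 had -0.62 (SE 0.14, adjusted p = 0.15), TRIB3 -0.56 (SE 0.13, adjusted p = 0.179), ASNS -0.73 (SE 0.23, adjusted p = 0.293) and ATF3 -0.71 (SE 0.23, adjusted p = 0.308). These were among 7 genes at an unadjusted p under 0.05, with DDIT4, PSAT1 and, outside the ATF4 group, HERPUD1 at -0.57 (SE 0.17, adjusted p = 0.27). ATF4 mRNA itself had -0.26 (SE 0.25, adjusted p = 0.675). Chaperones were closer together, with a median of -0.13 and DNAJB9 the lowest at -0.34 (SE 0.21).

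How many genes passed between the clones depended on the fit. The 7 genes just named were called when the parental libraries were left out, with adjusted p from 2.14e-05 (ASNS) to 0.0276 (PSAT1), in a fit with 1 residual degree of freedom that called 18.3% of all genes. HERPUD1 (adjusted p = 0.0474) and ASNS (adjusted p = 0.0117) were called without the E2 library of clone 2, with 5.85% of all genes. After the GC and length correction TRIB3 (log2 -0.65, adjusted p = 0.0328) and CHAC1 (log2 -0.70, adjusted p = 0.0328) were called, with 2.22% of all genes. GC content moved with this comparison: across genes, clone 2 minus clone 1 correlated with it at 0.309 in DMSO and 0.240 in E2 (Spearman, 15095 genes). The ATF4 group's median was -0.37 after the correction, and lay between -0.49 and -0.30 over all 12 settings run. HERPUD1, ATF3, CHAC1 and ASNS, the 4 stress genes with a TGATGNAA element in their promoter, had the 4 lowest log2 differences between the clones in the uncorrected fit, an order noticed after their values were seen. The order did not hold after the GC and length correction, where TRIB3 (-0.65), with no match in the bases searched, lay below HERPUD1 (-0.53). Nor did it hold in the E2 libraries alone, where DDIT4 was lowest at -0.69 and HERPUD1 had -0.45. Over all tested genes with a promoter entry, the median was -0.083 for 319 genes with the element and -0.0031 for 10906 without it.

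**Figure D4:**
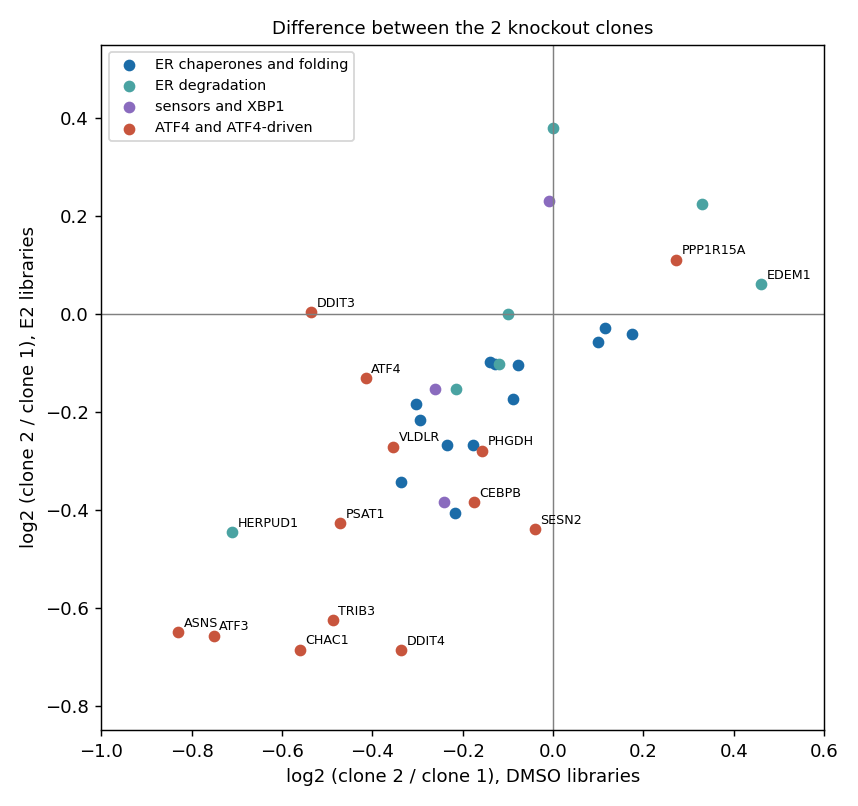
Each point is 1 of the 36 genes, with the log2 ratio of clone 2 to clone 1 in the DMSO libraries (x axis) and in the E2 libraries (y axis). Most ATF4-driven genes lie in the lower left, down to -0.83 in DMSO for ASNS and -0.69 in E2 for DDIT4 and CHAC1.

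Other genes of the 2 arms were read from lists that do not overlap the 36. Of 43 other ATF4 targets tested, 3 rose and 1 fell with E2 over the 3 lines, against 0.903% and 0.224% of all genes. SLC7A5 (LAT1), the large neutral amino acid transporter, measured 402 and 1851 CPM (parental), 552 and 1549.8 CPM (clone 1) and 559 and 1664 CPM (clone 2) (log2 1.76, SE 0.18, adjusted p = 0.0108). SLC3A2, its heavy chain partner, rose by 1.06 (SE 0.13, adjusted p = 0.0208) and VEGFA, an angiogenic factor, by 0.95 (SE 0.15, adjusted p = 0.0395). KLHL24, a Kelch-family adaptor, had -1.09 (SE 0.16, adjusted p = 0.0356). After the GC and length correction, with 2.61% of all genes and 0 of the 36 called, VEGFA lost its call (0.67, adjusted p = 0.0567) and the other 3 genes kept theirs. All 4 kept their direction in each of the 3 lines, and the list's median of 0.17 stood beside -0.069 for the ATF4 group above. SLC7A5 was also called in the clones alone (log2 1.52, adjusted p = 0.0342). Between the clones NUPR1, a stress-induced chromatin protein, was lower in clone 2 by a log2 difference of -1.90 (SE 0.17, adjusted p = 0.0098), the 1 gene of the list called there. Of 41 other ER folding, translocation and degradation genes, and of 17 kinases, proteases and initiation factors upstream of both arms, 0 passed in any of the 5 comparisons of the unblocked edgeR fits, with at most 3 and 1 at an unadjusted p under 0.05. DESeq2 called 1 of them, SPCS2, between the clones. The blocked interaction called 8 of the 41 ER genes, all higher, and 0 of the 17, against 15.8% of all genes. Of the 43 other ATF4 targets the same fit called 2 higher (KLHL24 and PSPH) and 4 lower (SLC7A1, CBS, ADM2 and STC2).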

How the data were processed

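The 6 libraries were poly(A)-selected with a stranded kit, per the labels' protocols. The authors deposited a raw table of whole-number read counts per gene symbol. The submitters' processing notes name HISAT2, SAMtools, Subread, DESeq2 and build hg19, without versions or order. The annotation and the use of strand in counting are not given in the sources used here. Columns written DMOS and ER were read as DMSO and E2, and 0 sample columns went unused. The deposited normalized table was not used.

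Counts were fitted with edgeR 4.0.16 (quasi-likelihood test, TMM scaling, filterByExpr on the 4 groups, Benjamini-Hochberg over all genes tested, threshold 0.05) in R 4.3.3. SE is the absolute log2 difference over the square root of F. E2 and knockout effects came from 1 additive fit, the E2 effect in the clones from their 4 libraries, the interaction from a fit with both terms, and the clone difference from a fit with line and treatment. No separate cultures are stated, so p-values cover only the spread between these libraries, which may be technical. Fits were also run on simulated counts, drawn independently per library with no line effect beyond the difference tested and no GC trend. That check does not cover the pairing by line or the GC trends of these libraries. Alternatives were DESeq2 1.42.0, limma-voom (limma 3.58.1), median-ratio scaling, other filters, the line as a block, leaving out libraries, and removal of the GC and length trend. Libraries pair by line: clone 2 minus clone 1 correlated between DMSO and E2 at 0.626 over all genes tested.

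Values in every library are given for up to 3 genes per class and comparison with the largest log2 difference among those with a mean of at least 2 CPM, and others by range. The genes, lists and tests were chosen with earlier results of these data known. Genes sharing reads with near-identical copies or antisense partners cannot be separated here.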

Additional observations from a re-analysis of the deposited data

Results flagged for a closer look

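An interaction fit in edgeR, with the line as a block, called a different E2 effect in clones and parental line for 3 stress genes. This fit has 1 residual degree of freedom per gene and rests on the single parental pair. The log2 difference of the effects was 0.80 for ATF4, 0.77 for ASNS and 0.72 for DNAJB9, each higher in 2 of 2 clones than in the single parental pair. The adjusted p was 0.0226, 0.0219 and 0.0126, and 15.8% of all genes passed in that fit. Without the block the adjusted p was 0.617, 0.683 and 0.617. The 3 genes are 8.33% of the 36, a smaller share than the 15.8% of all genes. With the GC and length correction in the same blocked fit DNAJB9 lost its call, with a log2 difference of 0.38 (adjusted p = 0.17), while ATF4 and ASNS kept theirs, with 7.82% of all genes called.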

How the results depend on the processing

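The count of stress genes called was 0 in each comparison as reported. For E2 over the 3 lines it was 1 with DESeq2, 1 with the replicate block and 1 with the block and GC correction (DDIT4 each time). The shares of all genes were 7.14%, 2.46% and 10.5%. For E2 in the clones these settings gave 1, 1 and 5, against 2.08%, 15% and 20.5% of all genes. The interaction gave 3 with the block (15.8% of all genes) and 2 with the block and GC correction (7.82%). The clone difference gave 2 with GC correction (2.22%) and 7 without the parental libraries (18.3%). Leaving out replicates gave 0 to 4 for E2, 0 to 1 for knockout, 0 to 1 for E2 in the clones, 0 to 0 for the interaction and 0 to 2 between the clones. The 4 for E2 came without clone 2, where 21.6% of all genes passed. The 1 for knockout also came without clone 2, where 6.41% passed. The random block for knockout gave 0, so pairing changed no other count. Median-ratio scaling, both other filters and limma-voom gave 0 throughout. For the named genes 19 of the alternative values had the opposite sign to the log2 difference reported, which had not passed in any of them. With libraries left out, DNAJB9 (E2) ran from -0.37 to 0.017, ERN1 (knockout) from -0.41 to 0.20 and ATF6 (knockout) from -0.14 to 0.18. In the clones CRELD2 ran from -0.0048 to 0.27, CALR from -0.28 to 0.0076, XBP1 from -0.19 to 0.054 and ASNS from -0.021 to 0.81. The interaction ran from -0.064 to 0.32 for ATF6 and from -0.16 to 0.079 for XBP1, and the clone difference of ERN1 from -0.13 to 0.36. GC correction gave 0.14 for XBP1 (E2), with or without the block, -0.081 for ATF6 (knockout) and -0.015 for ERN1 (clones). The causes were not tested. Leaving out single parental libraries and joining the block to GC correction were chosen after seeing the data. Precision was limited by 6 libraries: the SE of the 36 log2 differences for E2 ran from 0.11 to 0.30.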

Other observations

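Heat shock genes of the cytosol and mitochondria, which are known to answer to HSF1, had mostly higher levels after E2. Of 14 tested, 0 passed for E2 over the 3 lines in edgeR (2 at an unadjusted p under 0.05), with a median log2 difference of 0.28 and 12 of 14 above 0, beside 48.2% of all genes and a median of -0.019 for the ER chaperones. BAG3, a cochaperone of Hsp70, measured 54.9 and 138 CPM (parental), 91.6 and 142 CPM (clone 1) and 78.3 and 127 CPM (clone 2), with every E2 library above every DMSO library. The list includes HSPD1 and HSPE1, the mitochondrial chaperonins. By line, 10 of 14 had E2 above DMSO in all 3 lines and 1, DNAJB1, had E2 below in all 3. Its log2 ratios were -0.27 (parental), -0.12 (clone 1) and -0.0062 (clone 2). HSPB1 had -0.18, -0.32 and 0.38 and HSPE1 had -0.38, 0.51 and 0.62 in the same order. For BAG3 the log2 difference was 0.88 (SE 0.17, adjusted p = 0.0772), and it passed with DESeq2 (adjusted p = 0.000334) and after the GC and length correction (adjusted p = 0.0433). With that correction the median of the list was 0.40, with 8 of 14 at an unadjusted p under 0.05. In the clones alone the median of the list was 0.29, with 13 of 14 above 0, beside 49.2% of all genes. With the line as a block 4 were called there (BAG3, CHORDC1, HSPH1 and HSPE1), against 15% of all genes. Between the clones 12 of 14 heat shock genes were lower in clone 2, with a median of -0.32, beside 49.6% of all genes and a median of 0.0037.

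SPCS2, a subunit of the signal peptidase that trims proteins entering the ER, had the largest blocked interaction among the other ER genes. It measured 106 and 43.4 CPM (parental), 102 and 100.5 CPM (clone 1) and 27.3 and 42.5 CPM (clone 2). The parental DMSO library was the one parental value near those of clone 1, and both clone 2 libraries were low. The log2 interaction was 1.43 (adjusted p = 0.685) unblocked and 1.59 (adjusted p = 3.76e-09) with the line as a block.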
